A study of Mus musculus with 15 samples.

Results

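The genes described here are those of angiogenic growth factors, of an inhibitor and a vasoactive peptide of the same setting, and of the oxygen-sensitive alpha subunits of the hypoxia-inducible factor (HIF): Vegfa, Vegfb, Vegfc, Pgf, Angpt1, Angpt2, Thbs1, Adm, Hif1a and Epas1. They were taken by name, with earlier results of these data known, and are 10 of the 21154 genes that a probe could be matched to. Of the 55681 probes on each array that are not control spots, 13 carry an accession of these 10 genes, with 2 probes for Vegfa, 3 for Epas1 and 1 for each of the others. RNA came from the midshaft of the femur of male C57BL/6J mice, 9-week old per the labels, 1 array per mouse. Per the methods about 9 weeks was the age at surgery, 4 days before launch. The tissue was taken about 4 weeks after surgery, at an age of about 13 weeks. The 4 G-Sham (replicates 1, 3, 4 and 5) and 4 FLT-Sham (replicates 4, 6, 8 and 9) mice, unoperated per the labels although the methods speak of sham surgery, were kept on the ground or flown. The 4 G-Surgery (replicates 1, 3, 4 and 5) and 3 FLT-Surgery (replicates 1, 3 and 5) mice had segmental bone defect (SBD) surgery of the femur, in which a piece of the shaft is cut out and a polymer and calcium phosphate graft with a saline-soaked collagen sponge is placed in the gap. The labels call the tissue of every sample callus, although the sham femurs were intact, and per the study's methods the carcasses were frozen and partly thawed before dissection. The paper names the sub-optimal quality of the RNA as a limitation and calls it comparable between flight and ground. Values of a group are given below in the order of these replicate numbers.

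Growth of new vessels accompanies bone repair, and the factors measured here act on the endothelium at different steps. Vegfa, Vegfb and Pgf bind receptors of the VEGF family on blood vessels, Vegfc acts mainly on lymphatic endothelium, and the angiopoietins Angpt1 and Angpt2 signal through Tek (TIE2), on which Angpt1 is an agonist and Angpt2 acts mostly as an antagonist. Adm encodes adrenomedullin, a vasodilator peptide, and Thbs1 encodes thrombospondin 1, a matrix protein that restrains angiogenesis. Hif1a and Epas1 (HIF-2 alpha) are held low by oxygen-dependent hydroxylation and degradation of the protein, a step that mRNA arrays do not measure. When oxygen falls they pair with Arnt and bind short DNA motifs at target genes, of which Vegfa and Adm are classical examples.

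The core of the HIF binding motif is ACGTG or GCGTG. The stretches printed here are the 250 bases before the annotated start of 4 of the genes, 5′ to 3′ on the gene's strand, for the members above background on at least 10 arrays that had an entry, at the most upstream start where 2 are annotated. They come from RefSeq on build GRCm38.p6, with matches to either motif on either strand in capitals. Vegfa lies on the minus strand at chr17:46032378-46032627, Vegfb on the minus strand at chr19:6987652-6987901, Pgf on the minus strand at chr12:85177314-85177563 and Adm on the plus strand at chr7:110627407-110627656.
Vegfa: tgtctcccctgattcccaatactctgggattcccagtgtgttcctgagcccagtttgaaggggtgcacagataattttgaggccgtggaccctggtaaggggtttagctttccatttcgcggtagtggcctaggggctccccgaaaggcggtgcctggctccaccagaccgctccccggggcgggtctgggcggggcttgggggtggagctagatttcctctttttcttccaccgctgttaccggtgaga
Vegfb: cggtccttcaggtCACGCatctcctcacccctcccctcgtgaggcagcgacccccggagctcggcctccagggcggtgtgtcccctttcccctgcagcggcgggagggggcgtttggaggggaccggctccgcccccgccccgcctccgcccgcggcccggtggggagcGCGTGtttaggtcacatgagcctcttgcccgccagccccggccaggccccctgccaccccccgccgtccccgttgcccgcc
Pgf: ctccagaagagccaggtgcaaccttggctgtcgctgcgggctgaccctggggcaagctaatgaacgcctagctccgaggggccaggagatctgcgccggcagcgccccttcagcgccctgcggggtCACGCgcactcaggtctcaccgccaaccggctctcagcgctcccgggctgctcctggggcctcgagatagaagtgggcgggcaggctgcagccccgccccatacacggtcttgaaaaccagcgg
Adm: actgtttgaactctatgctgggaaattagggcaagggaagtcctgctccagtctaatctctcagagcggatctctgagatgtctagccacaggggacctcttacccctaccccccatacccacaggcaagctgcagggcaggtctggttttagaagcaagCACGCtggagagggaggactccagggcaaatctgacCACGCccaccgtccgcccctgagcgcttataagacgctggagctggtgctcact
The window of Vegfa holds 0 matches, that of Pgf 1, and those of Vegfb and Adm 2 each. The windows at the downstream starts of Vegfa and Pgf hold 2 and 0. Among 32851 promoter windows of the same length, 38.6% hold at least 1 match, so that a match in such a window is common. Entries were matched for 6 of the 10 genes and missing for Angpt1, Angpt2, Epas1 and Thbs1. The matches are a description of the letters in these windows, and the arrays give no measure of binding.

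On each array the sample RNA was labelled with Cy5 and the Universal Mouse Reference RNA, a commercial pool from 11 cell lines, with Cy3. The value of a probe is the deposited log ratio on the log2 scale, so that 0 is the level of the reference. A probe counts as above background where Feature Extraction marked its Cy5 signal as well above background. That was so for 22.4% to 38.5% of all probes per array. The FLT-Sham replicates 4, 6 and 9 had 34.9% to 38.5% of probes above background, whereas FLT-Sham replicate 8 had 26.6% and the FLT-Surgery arrays 22.4% to 25.6%. Replicate 8 of FLT-Sham stood apart for several of the genes below, and results that rest on it are given with and without it. Markers of osteoblasts were present, with Col1a1 and Col1a2 above background on 15 arrays and Ibsp on 13, but Sp7, Dmp1 and Phex on 0. Skeletal muscle transcripts were abundant throughout, with 8 to 10 of 10 markers above background per array. For endothelial cells 2 to 9 of 9 markers were above background, Egfl7 on 15 arrays, Pecam1 on 14 and Emcn on 1. The summed Cy5 signal of the endothelial list was 8860 to 16632 in G-Sham, 7939 to 63397 in FLT-Sham, 15668 to 36428 in G-Surgery and 4495 to 20434 in FLT-Surgery. Its part in the results below was not tested. In RNA of a whole tissue, fewer cells of a type and less RNA per cell cannot be told apart.

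**Figure D1:**
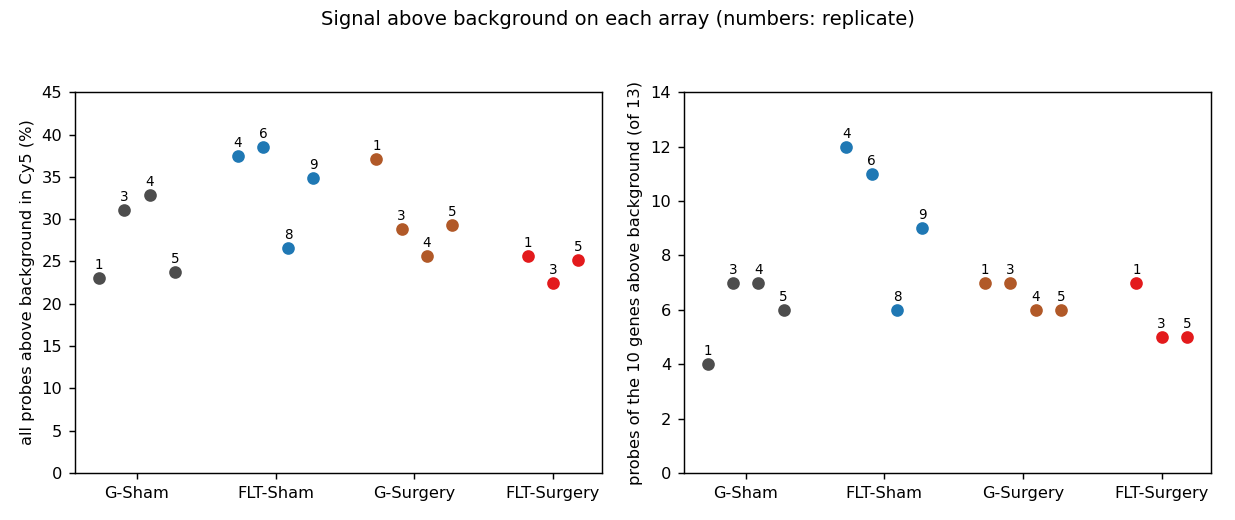
Share of all probes with a Cy5 signal well above background (left, %) and number of the 13 probes of the angiogenic and hypoxia genes above background (right), for each array by group, with the replicate number beside each point. FLT-Sham replicates 4, 6 and 9 had 9 to 12 of the 13 probes above background, and the other 12 arrays 4 to 7.

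The genes differed widely in whether they could be measured at all. The brightest probes of Vegfa, Vegfb and Epas1 were above background on all 15 arrays, and the probe of Adm on 14. The probes of Pgf, of Thbs1 and of Vegfc were above background on 10, 7 and 3 arrays. Angpt1 was above background on 2 arrays and Angpt2 on 1, all of them FLT-Sham arrays. Hif1a was above background on 0 of 15 arrays, with log2 ratios between -6.81 and -3.58. Of the 13 probes, 12, 11 and 9 were above background on FLT-Sham replicates 4, 6 and 9 and 4 to 7 on the other arrays, including G-Surgery replicate 1, where 37.2% of all probes were above background but 7 of the 13.

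None of the 13 probes passed the cut-off of a fold change of at least 2 at an unadjusted p of at most 0.01 in any of the 4 comparisons. Tested were the probes above background on at least 3 of the arrays compared. Between FLT-Sham and G-Sham 0 of 9 tested probes passed, where 2% of all 19737 tested probes did. Between FLT-Surgery and G-Surgery 0 of 8 passed, against 3.14% of all 16542. Between G-Surgery and G-Sham it was 0 of 8, against 2.59% of all 17674, and between FLT-Surgery and FLT-Sham 0 of 9, against 6.65% of all 19131. With so few probes a count of 0 lies near these shares. An unadjusted p under 0.05 in limma was found for 0, 3, 0 and 2 of the tested probes in the same order, where the shares over all probes were 9.57%, 16.4%, 10.9% and 24.3%. The smallest adjusted p of a member was 0.522, 0.280, 0.476 and 0.183. The comparisons share groups of arrays and are not independent of each other.

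**Figure D2:**
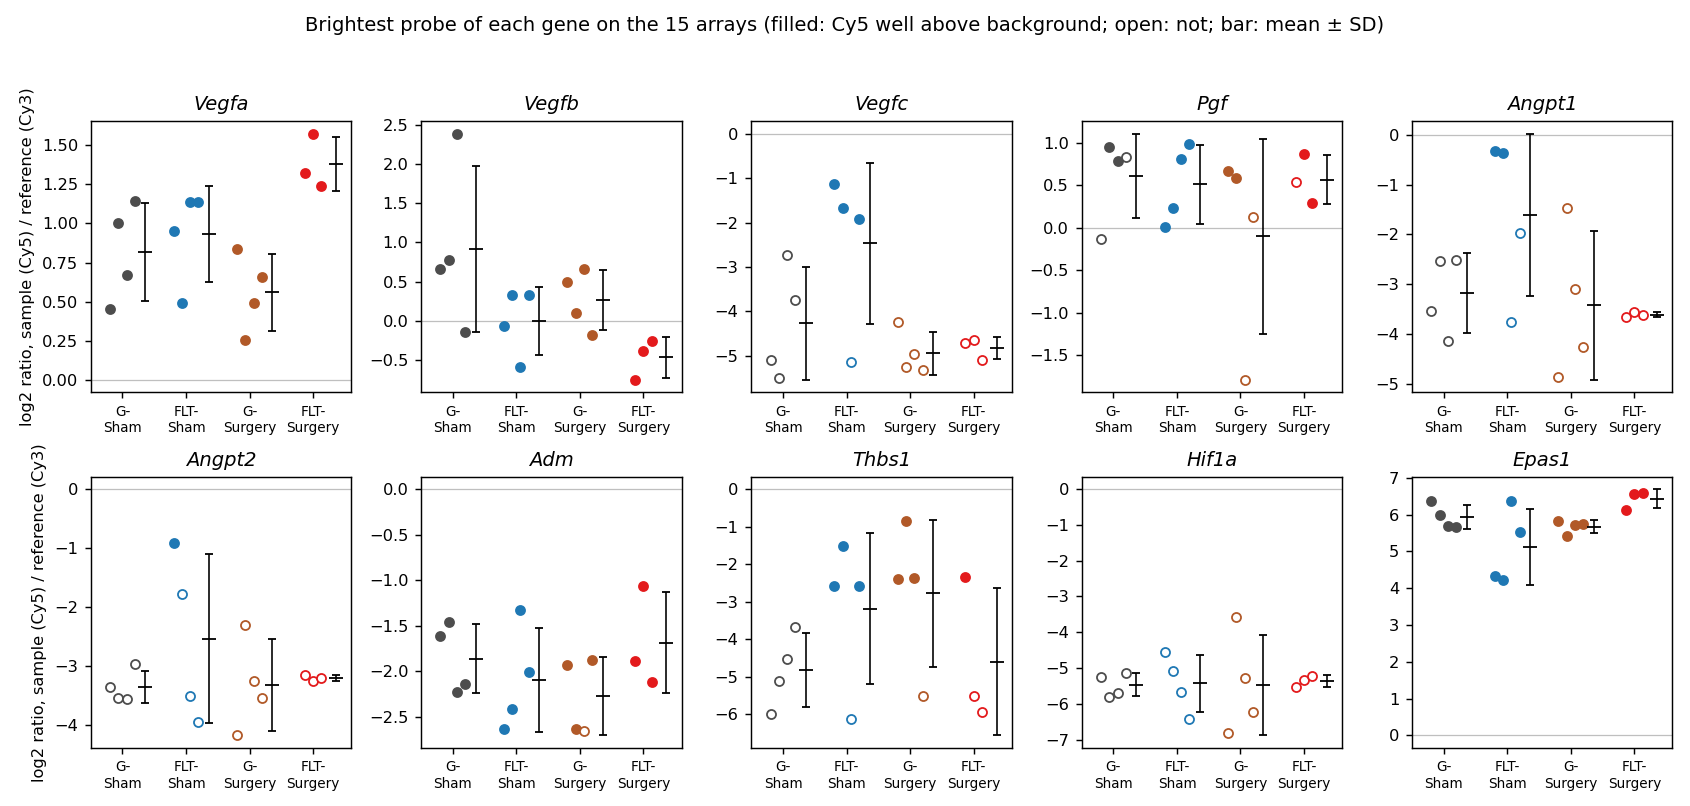
Log2 ratio of sample to reference at the brightest probe of each gene, for each of the 15 arrays by group (filled points: Cy5 well above background, open points: not), with the mean ± SD of the group. The 3 FLT-Surgery arrays lie above all 4 G-Surgery arrays for Vegfa and Epas1 and below them for Vegfb, and the angiopoietins and Hif1a are mostly open points.

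Vegfa, the main ligand of endothelial growth, was highest relative to the reference in the FLT-Surgery arrays. At its brightest probe (A_52_P638895) the log2 ratio was 0.46, 1.0, 0.67 and 1.14 in G-Sham and 0.95, 0.49, 1.14 and 1.14 in FLT-Sham. It was 0.84, 0.25, 0.49 and 0.66 in G-Surgery and 1.32, 1.57 and 1.24 in FLT-Surgery. The FLT-Surgery values lay above those of every other array, and the other 3 groups overlapped. The group means were 1.38 ± 0.17 (SD, n = 3) in FLT-Surgery, 0.93 ± 0.31 (SD, n = 4) in FLT-Sham, 0.82 ± 0.31 (SD, n = 4) in G-Sham and 0.56 ± 0.25 (SD, n = 4) in G-Surgery. The processed Cy5 signal ran from 9355 to 11053 in FLT-Surgery and from 5567 to 7526 in G-Surgery, and from 9097 to 12354 in FLT-Sham and 5875 to 7487 in G-Sham. In this channel alone every flight array was above every ground array, while in the ratio the sham groups overlapped. These signals are not scaled between arrays, and the Cy3 signal of the reference at this probe ran from 4159 to 6481 in FLT-Sham and from 2996 to 4277 in G-Sham. With Cy5 scaled and tested alone, the sham groups differed by 0.21 (SE 0.36, adjusted p = 0.745 from limma).

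Between FLT-Surgery and G-Surgery the log2 ratio of Vegfa differed by 0.82 (SE 0.26, adjusted p = 0.280 from limma), a difference below 2-fold that did not pass the cut-off. It was 0.75 among the arrays of slide 1 (2 against 3) and 1.07 on slide 2 (1 against 1), and 0.84 with slide as a block. The other differences of this probe were 0.11 (SE 0.32) between FLT-Sham and G-Sham, -0.26 (SE 0.26) between G-Surgery and G-Sham and 0.45 (SE 0.34) between FLT-Surgery and FLT-Sham, each with an adjusted p above that of the Surgery comparison. After a further loess normalization within each array, which moves the median of all probes in the Surgery comparison from -0.20 to 0.29, the difference was 1.03 and passed the cut-off (adjusted p = 0.117). The direction between the Surgery groups was the same in all 13 alternative settings and with each of the 7 arrays left out, where it lay between 0.72 and 0.91.

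The other Vegfa probe (A_52_P249424) was above background on 9 arrays and behaved differently. Its log2 ratio was -1.90, -0.79, -1.10 and 0.44 in G-Sham, 1.46, 0.44, -3.14 and 0.49 in FLT-Sham, -2.30, -1.74, -0.50 and -0.89 in G-Surgery and 0.22, -2.03 and -4.82 in FLT-Surgery. All groups overlapped. Between FLT-Surgery and G-Surgery this probe gave -0.85 (SE 1.09, adjusted p = 0.701 from limma), opposite in sign to the brighter probe. It gave -2.19 on slide 1 (2 arrays against 3) and 1.96 on slide 2 (1 against 1), so that its sign differed between the slides. The correlation of the probes over the 15 arrays was -0.11 (Pearson) and -0.10 (Spearman), given as a description. The dim probe was above background on 1 FLT-Surgery array and 2 G-Surgery arrays.

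Vegfb, a ligand of the same receptor family that is abundant in heart, muscle and brown fat, lay on the other side. Its log2 ratio was 0.66, 0.78, 2.38 and -0.14 in G-Sham and -0.06, 0.33, -0.59 and 0.33 in FLT-Sham. It was 0.49, 0.10, 0.66 and -0.18 in G-Surgery and -0.75, -0.39 and -0.25 in FLT-Surgery. The FLT-Surgery values were below every G-Surgery value but overlapped with FLT-Sham, and G-Sham had 1 high array, replicate 4. The difference between FLT-Surgery and G-Surgery was -0.73 (SE 0.30, adjusted p = 0.299 from limma), beside a median of -0.20 over all probes. It was -0.64 on slide 1 and -0.85 on slide 2. Under a further loess normalization the difference was -0.22 (SE 0.30) and after normexp background correction with loess -0.23 (SE 0.19).

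Between FLT-Sham and G-Sham Vegfb differed by -0.92 (SE 0.54, adjusted p = 0.531 from limma). Without G-Sham replicate 4, which is also the single array of the third slide, the difference was -0.43. The skeletal muscle markers, in whose tissue Vegfb is abundant, had a mean log2 ratio of 6.0 to 8.60 in G-Sham, 6.38 to 8.90 in FLT-Sham, 5.64 to 7.67 in G-Surgery and 4.0 to 7.09 in FLT-Surgery. Their part in the values of Vegfb was not tested.

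The 3 probes of Epas1, all carrying the same accession, did not move together. The brightest probe (A_55_P2077448) had log2 ratios of 6.37, 5.99, 5.68 and 5.67 in G-Sham, 4.33, 4.24, 6.37 and 5.54 in FLT-Sham, 5.82, 5.42, 5.71 and 5.73 in G-Surgery and 6.14, 6.57 and 6.60 in FLT-Surgery. The FLT-Surgery values lay above all G-Surgery values, and FLT-Sham held the lowest values of any group as well as 1 of 6.37, below FLT-Surgery replicates 3 and 5. The second probe (A_51_P250058) had -4.65, 1.38, 1.80 and 2.99 in G-Sham, 4.16, 4.74, -0.01 and 3.64 in FLT-Sham, 0.58, 2.92, 1.65 and 0.14 in G-Surgery and 2.64, -2.19 and -4.47 in FLT-Surgery. It was high in FLT-Sham replicates 4, 6 and 9, where the brightest probe had the lower values of that group, and not above background in FLT-Surgery replicates 3 and 5, where the brightest probe had its highest. The third probe (A_55_P2053988) was above background on FLT-Sham replicates 4 and 6 alone. Over the 15 arrays the brightest probe correlated at -0.79 (Spearman -0.90) with the second and at -0.75 (Spearman -0.72) with the third, and the second with the third at 0.69 (Spearman 0.79). These are descriptions over arrays that share a reference and a normalization.

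**Figure D3:**
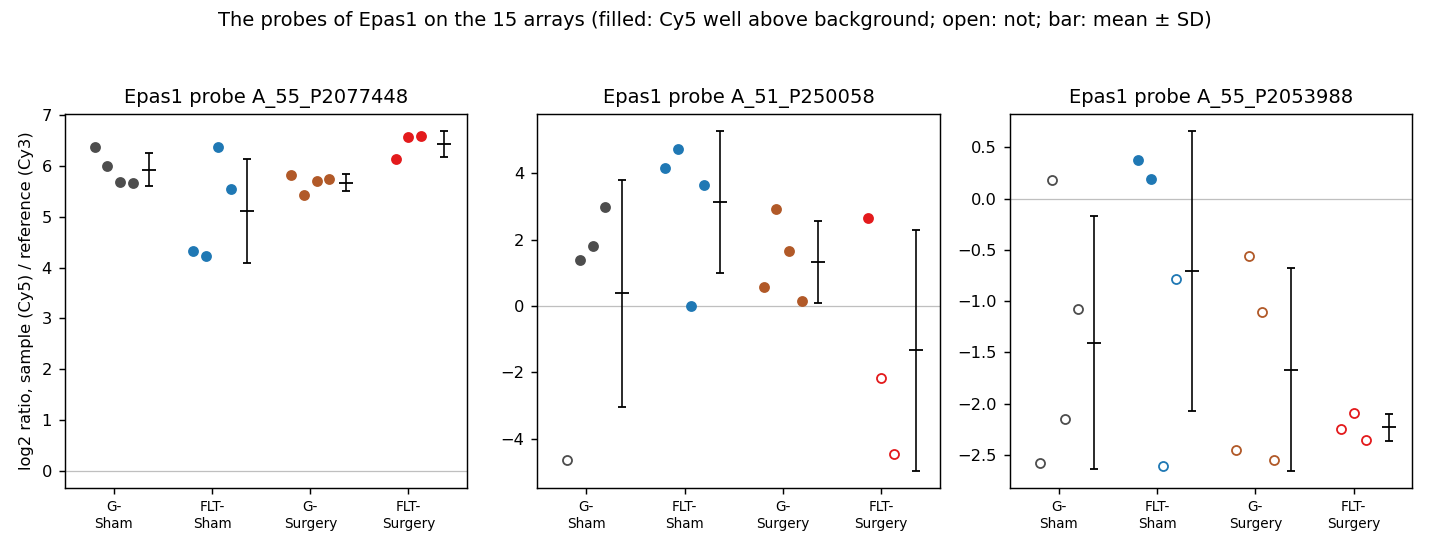
Log2 ratio of sample to reference at the 3 probes of Epas1 for each of the 15 arrays by group (filled points: Cy5 well above background, open points: not), with the mean ± SD of the group. The brightest probe (left) is lowest in FLT-Sham replicates 4 and 6 at 4.33 and 4.24, while the second probe (middle) is highest in the same arrays at 4.16 and 4.74.

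Between FLT-Surgery and G-Surgery the brightest Epas1 probe differed by 0.76 (SE 0.26, adjusted p = 0.280 from limma) and the second by -2.66 (SE 1.56, adjusted p = 0.399). The brightest probe gave 0.83 within slide 1 and 0.72 within slide 2, and the second -4.12 and -0.28. Without FLT-Surgery replicate 1 the second probe gave -4.65 and passed the cut-off (adjusted p = 0.0318). That array was the only FLT-Surgery array of slide 2 and the only one of its group above background at this probe. Between FLT-Surgery and FLT-Sham the brightest probe differed by 1.32 (SE 0.58, adjusted p = 0.213) and the second by -4.47 (SE 1.76, adjusted p = 0.185). Within slides 1 and 2 the brightest probe gave 2.25 and 0.76 in this comparison, and the second -7.49 and -0.15. Without FLT-Sham replicate 8 the brightest probe gave 1.73 and passed the cut-off (adjusted p = 0.0297), and without FLT-Surgery replicate 1 the second probe gave -6.46 and passed it (adjusted p = 0.0536). The gene thus has no single direction in either comparison. In the sham comparison the probes gave -0.81 (SE 0.52) and 2.75 (SE 1.70), and between G-Surgery and G-Sham -0.26 (SE 0.25) and 0.94 (SE 1.54).

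The other alpha subunit, Hif1a, is represented by 1 probe that was not well above background on any array. Its processed Cy5 signal ran from 34.7 to 241, with medians of 55.4 in G-Sham, 84.8 in FLT-Sham, 64.3 in G-Surgery and 77.8 in FLT-Surgery. No comparison was made for it, and no fold is given where both groups lie below background.

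Thbs1, the angiogenesis inhibitor, varied widely from array to array. Its log2 ratio was -6.00, -5.12, -4.52 and -3.68 in G-Sham, none of them above background, and -2.57, -1.52, -6.12 and -2.57 in FLT-Sham. It was -2.40, -0.85, -2.36 and -5.52 in G-Surgery and -2.35, -5.51 and -5.95 in FLT-Surgery. In each of the last 3 groups the arrays fell into those above background, at -2.57 or higher, and those below it, at -5.51 or lower. Above background were 3 of 4 FLT-Sham, 3 of 4 G-Surgery and 1 of 3 FLT-Surgery arrays, and groups overlapped in all comparisons.

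Since G-Sham was below background throughout, only lower bounds hold against it. These set the mean Cy5 signal of the brighter group against a level for each array of the dimmer group. That level is the higher of the dimmest signal counted as above background and the probe's own signal. The Cy5 signal was taken here after the mean intensity of both channels had been quantile-scaled between arrays. The bounds are point estimates with no sampling error attached. Without a dye swap a bias of the dye cannot be told apart from them. Thbs1 was at least 3.62-fold higher in G-Surgery than in G-Sham, with a fitted log2 difference of 2.05 (SE 0.94, adjusted p = 0.476 from limma). The difference was 1.69 on slide 1 (3 arrays against 1) and 3.99 on slide 2 (1 against 2). Without G-Surgery replicate 5, the array below background, it was 2.96 and passed the cut-off. The probe entered this test through G-Surgery alone, so that passing the cut-off without the dim array of that group is no support. In FLT-Sham Thbs1 was at least 2.49-fold higher than in G-Sham, with 1.63 on the log2 scale (SE 0.97, adjusted p = 0.531). Without FLT-Sham replicate 8, the array of that group below background, the fitted value was 2.61 and passed the cut-off. The same limit holds, since the probe entered this test through FLT-Sham alone. The difference was -1.82 for FLT-Surgery against G-Surgery (SE 1.24, adjusted p = 0.459) and -1.41 for FLT-Surgery against FLT-Sham (SE 1.26, adjusted p = 0.460). With an array left out the first ranged from -2.95, without FLT-Surgery replicate 1, to -1.15, without FLT-Surgery replicate 5, and the second from -2.54 to -0.74 for the same arrays. On slides 1 and 2 the first was -2.30 and -1.50, and the second changed sign, from -3.16 (2 arrays against 1) to 1.05 (1 against 3). After normexp background correction with loess, Thbs1 came to -0.09 for FLT-Sham against G-Sham, of the other sign to its bound of 2.49-fold. G-Surgery against G-Sham came to 0.32, a smaller difference than its bound of 3.62-fold. It was 0.54 for FLT-Surgery against FLT-Sham and 0.13 for the Surgery groups.

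Vegfc, the lymphatic growth factor, was above background in FLT-Sham replicates 4, 6 and 9 and nowhere else. The log2 ratios there were -1.14, -1.67 and -1.93, against -5.13 in replicate 8. The values were -5.09, -5.50, -2.72 and -3.75 in G-Sham, -5.31 to -4.25 in G-Surgery and -5.10 to -4.65 in FLT-Surgery, all below background. As a lower bound it was at least 2.07-fold higher in FLT-Sham than in G-Sham (adjusted p = 0.522 from limma) and at least 1.92-fold higher in FLT-Sham than in FLT-Surgery (adjusted p = 0.183), in each case with FLT-Sham replicate 8 included. The fitted differences were 1.80 (SE 0.95) and -2.36 (SE 0.92). On slide 1 and slide 2 they were 4.36 and 1.52 against G-Sham, and -3.74 and -1.81 for FLT-Surgery against FLT-Sham. Without FLT-Sham replicate 8 the fitted differences were 2.69 and -3.24 and passed the cut-off. The probe entered both tests through FLT-Sham replicates 4, 6 and 9 alone. These are the FLT-Sham arrays that remain without replicate 8, so that passing the cut-off there is no support. After normexp correction with loess the fitted differences over all arrays were -0.13 and 0.11, smaller than the bounds and of the other sign. The same 3 arrays had the highest shares of probes above background among the flight arrays. Between the sham groups, 4 of 4 tested adipocyte markers (median 3.47, Cidec and Plin1 called) and 7 of 8 endothelial markers (2.22) were higher in FLT-Sham. Each other marker list also had more genes higher than lower. The part of overall signal and of these markers in the result for Vegfc was not tested.

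The angiopoietins were near or below background. Angpt1 was above background in FLT-Sham replicates 4 and 6 and was at least 1.34-fold higher in FLT-Sham than in G-Sham and at least 1.31-fold higher than in FLT-Surgery, with no test since fewer than 3 arrays were above background. Angpt2 was above background in FLT-Sham replicate 4, at a log2 ratio of -0.92, and no fold is given, because the mean of the group lay below the floor of the other arrays. In both Surgery groups and in G-Sham neither was above background on any array, so that their balance could not be compared between flight and ground in the callus.

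Pgf, a VEGF family ligand that binds Flt1, was measured close to background. Its log2 ratio was -0.13, 0.95, 0.79 and 0.83 in G-Sham and 0.01, 0.23, 0.81 and 0.99 in FLT-Sham. It was 0.67, 0.58, -1.79 and 0.13 in G-Surgery and 0.54, 0.87 and 0.29 in FLT-Surgery. Apart from G-Surgery replicate 4 the arrays lay within about the same range in all groups. The differences were -0.10 (SE 0.38) between the sham groups, 0.67 (SE 0.61) between the Surgery groups, -0.71 (SE 0.56) for G-Surgery against G-Sham and 0.06 (SE 0.39) for FLT-Surgery against FLT-Sham, with adjusted p from 0.582 to 0.932. Without G-Surgery replicate 4 the Surgery difference was 0.10 and that of G-Surgery against G-Sham -0.15.

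Adm was above background on all arrays but G-Surgery replicate 4. Its log2 ratio was -1.62, -1.47, -2.23 and -2.15 in G-Sham and -2.64, -2.42, -1.33 and -2.01 in FLT-Sham. It was -1.94, -2.64, -2.66 and -1.88 in G-Surgery and -1.88, -1.06 and -2.12 in FLT-Surgery. All groups overlapped, and in order of their means FLT-Surgery (-1.69 ± 0.55, SD, n = 3), G-Sham (-1.86 ± 0.38, SD, n = 4), FLT-Sham (-2.10 ± 0.58, SD, n = 4) and G-Surgery (-2.28 ± 0.43, SD, n = 4) did not differ beyond their spread between neighbours. The difference between the Surgery groups was 0.59 (SE 0.37, adjusted p = 0.429 from limma), and it lay between 0.28 and 0.80 with each array left out. The direction was the same in the 12 alternative settings that gave a value.

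**Figure D4:**
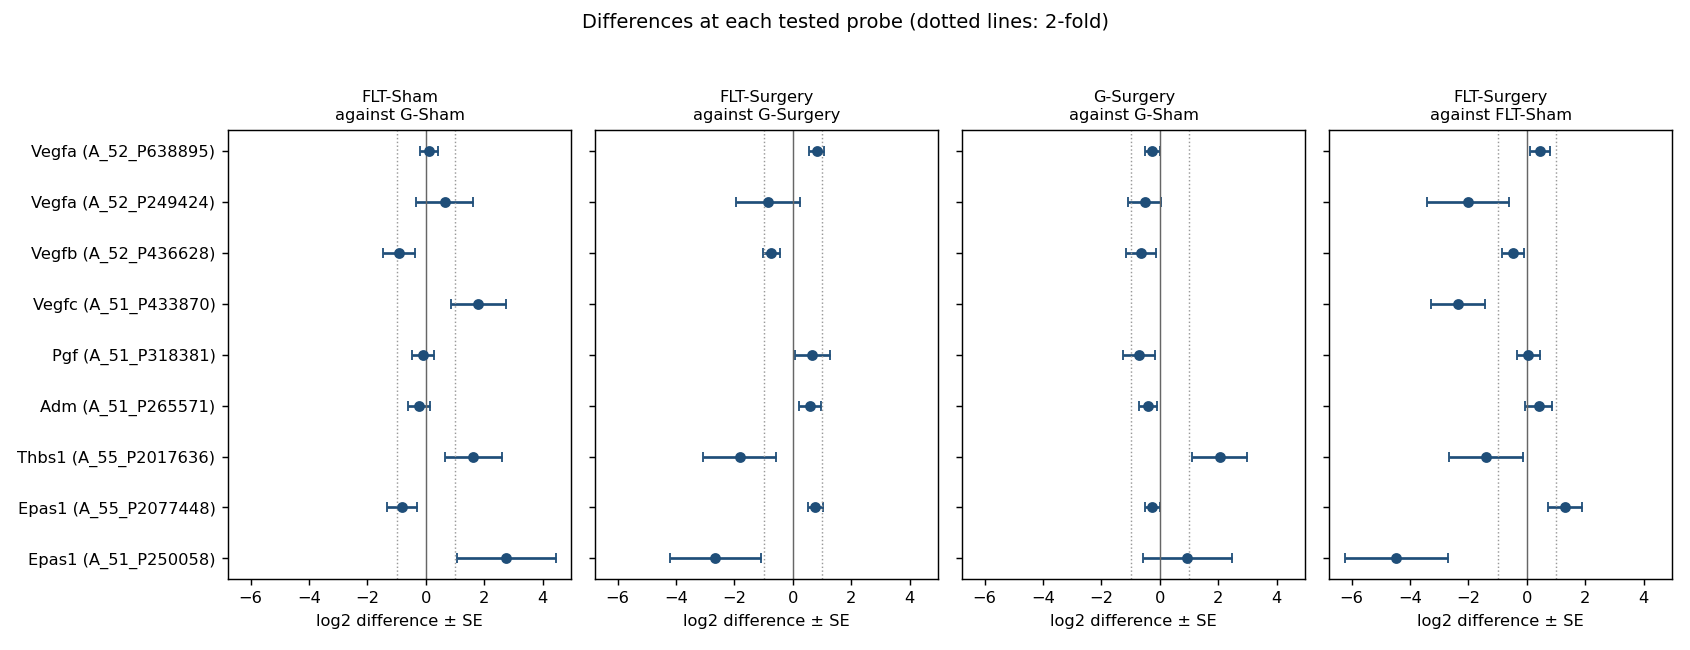
Log2 difference ± SE from limma in the 4 comparisons for each probe of the set that was tested (dotted lines mark 2-fold, and an empty place means not tested). In the comparison of FLT-Surgery with G-Surgery the brightest probes of Vegfa and Epas1 are at 0.82 and 0.76 and Vegfb at -0.73, with errors smaller than those of the dim probes.

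The study asked how spaceflight affects healing bone, and in the Surgery comparison 3 of the 8 tested probes had groups that did not overlap (Vegfa and Epas1 at their brightest probes and Vegfb), where 13.6% of all tested probes did not overlap. In the other comparisons it was 0 of 9 for FLT-Sham against G-Sham (4.6% of all probes), 0 of 8 for G-Surgery against G-Sham (6.86%) and 1 of 9, Vegfa, for FLT-Surgery against FLT-Sham (14.7%). The median difference over the tested members was -0.07 between the Surgery groups, beside -0.20 over all probes, and 0.11 between the sham groups, beside 0.24. For G-Surgery against G-Sham it was -0.34, beside 0.14, and for FLT-Surgery against FLT-Sham -0.46, beside -0.28.

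Whether the flight difference itself differed between operated and unoperated femurs was tested as an interaction over all 15 arrays. Of the 9 member probes tested 0 passed the cut-off, where 5.33% of all 21773 did. The brightest Epas1 probe gave 1.57 (SE 0.62, adjusted p = 0.210 from limma) and its second probe -5.41 (SE 2.52, adjusted p = 0.256). Without FLT-Sham replicate 8 the brightest probe gave 1.99 and passed the cut-off (adjusted p = 0.0359). Vegfc then gave -2.57 and passed it too. It entered this test through the other FLT-Sham arrays alone, so that its passing is no support. Without FLT-Surgery replicate 1 the second Epas1 probe gave -7.40 and passed it (adjusted p = 0.0879). With all arrays Vegfc gave -1.68 (SE 1.14, adjusted p = 0.403). Vegfa gave 0.71 (SE 0.39), Vegfb 0.19 (SE 0.67), Thbs1 -3.46 (SE 1.67), Adm 0.82 (SE 0.54) and Pgf 0.77 (SE 0.73), with adjusted p from 0.267 to 0.891. The value of Pgf was 0.20 without G-Surgery replicate 4. The median over all probes was -0.37, and it was 0.49 after a further loess normalization.

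Around these genes, 58 others of the pathway were followed in 6 lists, covering VEGF and angiopoietin receptors, adrenomedullin receptor subunits, thrombospondins and their receptors, oxygen sensing, HIF targets and other angiogenic factors. Between FLT-Sham and G-Sham 0 of 43 tested genes passed the cut-off at any probe, against 2.5% of all genes, and at the brightest probe 30 were higher and 13 lower in flight. Leaving out FLT-Sham replicate 8 gave 5 called genes, leaving out G-Sham replicate 4 gave 2 and leaving out FLT-Sham replicate 9 gave 1. The calls over all probes went from 394 to 2068, 264 and 143 in these runs. Between FLT-Surgery and G-Surgery 0 of 36 were called higher and 4 lower, against 3.75% of all genes called in either direction, and 6 were higher and 30 lower at the brightest probe. Between G-Surgery and G-Sham 2 of 37 were called higher and 0 lower, against 3.47%, with 29 higher and 8 lower. Without any one of G-Surgery replicates 1, 3 or 4 or G-Sham replicate 3 it was 1. The calls over all probes were then 240, 271, 252 and 530, against 458 with all arrays. For FLT-Surgery against FLT-Sham 0 of 42 were called higher and 4 lower, against 9.61%, with 12 higher and 30 lower. In the interaction 0 of 43 were called with a positive and 7 with a negative sign, against 7.97%. These were Ankrd37, Arnt, Kdr, Nrp2, Thbs3, Tie1 and Vhl, and this count was not made in the alternative settings. The larger side of each split had the sign of the median over all probes, which was 0.24, -0.20, 0.14 and -0.28 and turned to -0.13, 0.29, -0.08 and 0.35 after a further loess normalization.

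The genes called lower in FLT-Surgery than in G-Surgery were Vhl, P4ha1, Angptl4 and Thbs3. Vhl, which marks hydroxylated HIF alpha for degradation, gave -1.19 (SE 0.31, adjusted p = 0.280 from limma) at its brightest probe, with arrays of the groups not overlapping. P4ha1, a collagen prolyl hydroxylase subunit and HIF target, exceeded background on 3 arrays of G-Surgery but 0 of FLT-Surgery, and its level in G-Surgery was at least 1.96-fold higher. P4ha1 entered the test through G-Surgery alone, the group where it was high, so that its call is no support. Its fitted value of -1.23 was turned to 0.11 by normexp correction with loess, which also took Vhl to -0.16, Angptl4 to -0.53 and the called Thbs3 probe to -1.33. Angptl4, a secreted regulator of lipoprotein lipase and vessels, gave -1.16 (SE 0.31, adjusted p = 0.280), and 1 dim probe of Thbs3, a thrombospondin of skeletal tissue, -3.56 (SE 1.03, adjusted p = 0.280), while its brighter probe gave -4.42 with an unadjusted p just above the cut-off. Angptl4 and Thbs3 were also the genes called higher in G-Surgery than in G-Sham, by 1.41 (SE 0.34, adjusted p = 0.274) and, at the brighter Thbs3 probe, 2.71 (SE 0.79, adjusted p = 0.337), and the G-Surgery arrays are the same in both comparisons. Under normexp these were 0.77 and 1.14. With slide as a block they were 1.47 and 3.33, and neither passed the cut-off. Of the marker genes tested, 3 of 3 chondrocyte (median 2.69), 5 of 5 endothelial (1.14) and 4 of 4 macrophage genes (0.85) were higher in G-Surgery than in G-Sham. Lower were 3 of 3 erythroid, 5 of 6 neutrophil, 5 of 9 skeletal muscle and 3 of 6 osteoblast and osteocyte genes. The single adipocyte and megakaryocyte and platelet genes tested were also lower. Between the Surgery groups, markers of other cell types lay lower in FLT-Surgery as well. These were 9 of 9 tested skeletal muscle genes (median -1.76), 5 of 5 endothelial (-2.27), 4 of 4 osteoblast and osteocyte (-0.77) and 3 of 3 chondrocyte genes (-3.50). Of them Myh2 and Col2a1 were called. Other lists were mixed, with 5 of 6 neutrophil, 3 of 4 macrophage and 2 of 3 erythroid genes lower. The single adipocyte and megakaryocyte and platelet genes tested were lower. Their part in the values of the pathway genes was not tested. Without any one of G-Surgery replicates 1, 3 or 4 or FLT-Surgery replicate 5, 0 pathway genes were called between the Surgery groups. Leaving out FLT-Surgery replicate 3 gave 1, and leaving out FLT-Surgery replicate 1 gave 14. In this last run the calls over all probes rose from 519 to 2053, and in the others named here they lay between 246 and 357.

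Lower in FLT-Surgery than in FLT-Sham were Hk2, Ankrd37, Fgf1 and Ramp1. Hk2, a glycolytic enzyme under HIF control, gave -3.35 (SE 0.80, adjusted p = 0.136 from limma). Ankrd37, a HIF target, was above background on 0 FLT-Surgery arrays and at least 2.36-fold higher in FLT-Sham (adjusted p = 0.0883), and its fitted value of -2.18 was turned to 0.74 by normexp correction with loess. Fgf1, an angiogenic growth factor, gave -4.16 (SE 1.16, adjusted p = 0.145), with overlapping arrays. For Ramp1, which forms receptors for peptides of the calcitonin family, a dim probe was at least 4.89-fold higher in FLT-Sham, while its brightest probe gave 0.95 (SE 0.70, adjusted p = 0.376) in the other direction. Ankrd37 and the dim Ramp1 probe entered the test through FLT-Sham alone, where they were high, so that their calls are no support. Under normexp the dim Ramp1 probe gave -0.88, a smaller difference than its bound, while Hk2 gave -1.42 and Fgf1 -1.94. Without FLT-Sham replicate 8 the pathway genes called in this comparison numbered 20 and without FLT-Surgery replicate 1 they numbered 10, while without any one of FLT-Sham replicates 4, 6 or 9 or FLT-Surgery replicate 5 there was 1, and without FLT-Surgery replicate 3 there were 2. The calls over all probes rose from 1272 to 4912 without FLT-Sham replicate 8 and to 2467 without FLT-Surgery replicate 1. In the other runs they lay between 296 and 464. Among the HIF targets as a list, 19 of 22 genes were tested in this comparison, and 6 were higher and 13 lower at the brightest probe. The median was -0.67, beside -0.28 over all probes. It was 0.25 between the sham groups (12 higher, 7 lower), beside 0.24, and 0.11 between the ground groups (10 higher, 7 lower), beside 0.14. Between the Surgery groups it was -0.39 (4 higher, 12 lower), beside -0.20. Of the 10 skeletal muscle markers, tissue in which Hk2 is abundant, 4 were called lower between FLT-Surgery and FLT-Sham, against 9.61% of all genes in either direction. Called lower were also 4 of 4 tested adipocyte, 3 of 7 neutrophil and 2 of 3 erythroid genes. It was 1 of 5 osteoblast and osteocyte, 1 of 4 megakaryocyte and platelet, 0 of 8 endothelial and 0 of 3 chondrocyte genes. The 3 macrophage genes tested were higher. The part of these markers in the result was not tested.

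For the members measured on all 15 arrays, the genes with the most similar pattern over these arrays were looked up among 8291 probes above background on every array. For Vegfa these were Capza2 and Morn4, each with a Pearson correlation of 0.88, and for Vegfb Stbd1 at 0.85 and Nploc4 at 0.84. For the brightest Epas1 probe they were Bmp4 at 0.99 and Arl4c at 0.98. The values are the highest of many and are given as a description over 15 arrays.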

How the data were processed

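Two-colour Agilent SurePrint G3 mouse arrays of 15 femur samples were used as deposited. The authors extracted the spots with Feature Extraction (12.0.3.1 per the file headers), which subtracts background and normalizes the dyes with a correction that depends on intensity. The deposited files hold the processed intensity of each channel and the log10 ratio of Cy5 to Cy3, and the deposited series table holds the same log10 ratio, which differed from it by at most 0.005. An exact 0 in this ratio is listed for 9401 to 19129 spots per array, of which none was well above background in Cy5.

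The log10 ratio was converted to log2 with no further normalization, since the signals were already dye-normalized. For the lower bounds alone, the mean intensity of both channels was quantile-scaled between arrays. Outlier spots were left out and spots of a probe averaged. Accessions were matched to symbols through RefSeq, and 28026 probes had one. Each comparison was fitted with limma 3.58.1 (R 4.3.3) on its own arrays, and the interaction on all 15, over probes whose Cy5 was above background on 3 or more of them. The cut-off was that of the methods, a 2-fold or larger change with an unadjusted p no higher than 0.01, and adjusted p are Benjamini-Hochberg values over all probes tested. Depth does not apply to arrays, and their number limits the precision. Each array is from a separate mouse, and the highest correlation between arrays was 0.983 with 0 equal values.

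The members and gene lists were chosen with earlier results of these data known. All member probes are shown, and the brightest leads. Genes of the lists are named where past the cut-off, and the 2 most similar genes by Pearson correlation. In simulated data, where 200 probes were shifted by a log2 value of 2, the test called 65.5% of them for FLT-Sham against G-Sham, run on 19724 probes, and 77% for the Surgery groups, run on 16506. It called 77% for G-Surgery against G-Sham and 61% for FLT-Surgery against FLT-Sham. Alternatives were 12 planned settings, 1 added after the values were seen (centring on bright probes) and leaving out each array. The normexp alternative used median signals, with an offset of 50. Slide, as the files give it, was tested as a batch, with G-Sham replicate 4 alone on the third slide.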

Additional observations from a re-analysis of the deposited data

Results flagged for a closer look

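Pgf in G-Sham replicate 1 had a log2 ratio of -0.13, while the remaining G-Sham arrays lay between 0.79 and 0.95, a gap that is large for the range of 4 arrays. The Pgf probe was not above background on that array. This was 1 of 39 combinations of a probe and a group of 4 arrays, where chance gives about 1.95.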

How the results depend on the processing

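Over the 33 differences of single genes, 670 runs of alternatives gave 21 changes of sign, in 12 of the differences, and 15 calls. The cause was not tested. Signs changed in 8 of 33 differences after normexp correction with loess, 3 of 33 after a further loess, 1 of 33 each with slide as a block and with array weights, 8 of 285 on leaving out an array, and 0 of 253 in the others.

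For FLT-Sham against G-Sham, Vegfa went from 0.11 to -0.10 under a further loess, to -0.036 with array weights and to between -0.0079 and 0.26 with an array left out, Pgf to between -0.35 and 0.068 with an array left out, and Vegfc and Thbs1 to -0.13 and -0.089 under normexp. For FLT-Surgery against G-Surgery, Thbs1 went to 0.13 under normexp. For FLT-Surgery against FLT-Sham, Vegfb went to 0.15 under a further loess and 0.039 under normexp, Vegfc and Thbs1 to 0.11 and 0.54 under normexp, and Pgf to between -0.11 and 0.22 with an array left out. In the interaction, Vegfc went to 0.030 under a further loess and 0.22 under normexp, Thbs1 to 0.22 under normexp, and Vegfb to -0.30 with slide as a block and to between -0.30 and 0.54 with an array left out.

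Against 0 member probes called, array weights gave 2 for FLT-Sham against G-Sham, 1 for FLT-Surgery against G-Surgery, 5 for FLT-Surgery against FLT-Sham and 3 for the interaction, and a further loess gave 1 for FLT-Surgery against G-Surgery. With an array left out the member counts ranged from 0 to 2, 0 to 1, 0 to 1 (G-Surgery against G-Sham), 0 to 2 and, for the interaction, 0 to 2. With array weights the calls over all probes went from 394 to 3855 for FLT-Sham against G-Sham, from 519 to 1704 for FLT-Surgery against G-Surgery, from 1272 to 8505 for FLT-Surgery against FLT-Sham and from 1160 to 5708 for the interaction. Without FLT-Sham replicate 8 they were 2068 between the sham groups, 4912 for FLT-Surgery against FLT-Sham and 3772 for the interaction. Without FLT-Surgery replicate 1 they were 2053 between the Surgery groups, 2467 for FLT-Surgery against FLT-Sham and 2239 for the interaction.

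Pathway genes called for FLT-Sham against G-Sham went from 0 to 1 under a further loess and in Cy5 alone, 2 with slide as a block and with all 15 arrays, 13 with array weights and 0 to 5 with an array left out. For FLT-Surgery against G-Surgery they went from 4 to 1 under a further loess, normexp, Cy5 alone and both channels above background, 2 with all 15 arrays, 9 with slide as a block, 12 with array weights and 0 to 14 with an array left out. For G-Surgery against G-Sham they went from 2 to 1 under normexp, without the filter and with all 15 arrays, 0 with slide as a block and 1 to 3 with an array left out. For FLT-Surgery against FLT-Sham they went from 4 to 2 under a further loess, both channels above background and slide as a block, 1 under normexp, 11 with all 15 arrays, 27 with array weights and 1 to 20 with an array left out.

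A further loess moved the share of calls over all probes that were higher in the first group from 89.6% to 65.2% (FLT-Sham against G-Sham), 33.3% to 94.8% (FLT-Surgery against G-Surgery), 80.3% to 57.0% (G-Surgery against G-Sham), 6.37% to 51.7% (FLT-Surgery against FLT-Sham) and 6.72% to 74.0% (interaction). Under normexp these shares were 30.3%, 82.7%, 40.0%, 33.1% and 53.9%.

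Replicate numbers did not pair the arrays. Same-numbered arrays deviated together by -0.36, -0.19 and 0.24 in the Surgery groups and by -0.16 to 0.35 in the ground groups. With the replicate block, member calls stayed at 0 in both comparisons, pathway genes called were 0 between the Surgery groups and 2 between the ground groups, and calls over all probes were 203 instead of 519 and 389 instead of 458.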
